A study of Saccharomyces cerevisiae with 6 samples.

Results

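Genes of the mRNA export receptor Mex67-Mtr2, of the Dbp5 helicase step and of the TREX-2 complex were followed on 6 two-colour arrays of budding yeast (Saccharomyces cerevisiae) total RNA. The 9 genes are MEX67 and MTR2, which encode the receptor, DBP5, GLE1 and GFD1, which act in mRNP remodelling, and SAC3, THP1, SUS1 and CDC31, which encode TREX-2 subunits. They were chosen by name, and a feature (a spot with its own identifier) belonged to a gene when its symbol in the platform annotation was that name. The rule found 9 of the 7680 features, for 8 of the 5583 genes named on the array. MTR2 had 2 features, the other 7 genes had 1 each, and SUS1, which no feature of the annotation names, was not analysed here. All 9 features had a value on all 6 arrays and all 9 passed the filter of the fit.

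Each array set RNA from yra1-1 cells, a temperature-sensitive mutant of the essential gene YRA1, against RNA from Yra1 wild-type cells, both at 37 °C. The temperature is non-permissive for the mutant, and both sides of every ratio share it, so no array shows the effect of heat itself. The labels give no strain background, no other allele and no time at 37 °C. By the labels, channel 1 held the mutant RNA for arrays 1, 4 and 6, and channel 2 held it for arrays 2, 3 and 5. Separate cultures are not stated, and arrays 1 and 3 carry the same slide number with the letters a and b, so the p-values describe a spread between arrays that may be technical.

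Yra1 is an adaptor that binds nascent mRNPs and hands them to Mex67, which with its partner Mtr2 carries mRNA through the nuclear pore. At the cytoplasmic face of the pore the DEAD-box ATPase Dbp5, activated by Gle1 and inositol hexakisphosphate, strips Mex67 from the arriving mRNP, and Gfd1 is a small protein that binds both Gle1 and Nab2. TREX-2 is built on the scaffold Sac3, holds Thp1, Sus1, the centrin Cdc31 and Sem1, and tethers active genes to the nuclear basket. These are functions of the proteins, whereas the arrays compare their RNAs.

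The values are log ratios, so they give no level of a gene and no order of levels between genes. Array medians of the deposited log10 ratios ran from −1.18 to 1.24 and were subtracted after conversion to log2, so a change shared by most genes is not seen. In total RNA of a culture, fewer cells and less RNA per cell cannot be told apart. The labels do not name the numerator of the ratio. Every member value on an array is therefore given on 2 readings, the column as deposited and the column turned by the labelled channel. Turned, the sign is kept on arrays 1, 4 and 6 and changed on arrays 2, 3 and 5. For other genes some values are given on a single reading. A positive turned value means more RNA in the mutant if the ratios are channel 1 over channel 2, and less if they are channel 2 over channel 1. If the submitters had already turned the columns so that all share the same strain order, the deposited reading holds the strain difference and the turned one a dye effect. If the sign of any array departs from the rest, neither reading holds the strain difference alone.

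The arrays were noisy and not alike. Across all features the correlation of 2 columns as deposited was 0.042 to 0.386 for the 6 pairs of arrays with the same labelled channel and −0.135 to 0.326 for the 9 pairs with opposite channels. An array held values for 7625 to 7680 features, with an SD of 0.99 to 1.43 log2 units across features. YRA1 itself lay at −1.39 on array 1 and at 1.00 to 3.49 on the other 5 (centred log2 ratio, as deposited), and array 1 was also the exception in sign for the marker genes TRP1 and URA3. TRP1 lay at −3.48 on array 1 and at 2.76 to 4.16 on the other 5, and URA3 at 3.19 and at −5.92 to −2.21. Those 5 arrays hold both channel assignments, so each of these genes kept its sign there as deposited and not when turned. Which reading holds the strain difference was not tested. On array 1 alone the mutant's name in the title is preceded by mex, which the labels do not explain. Markers of haploid mating type showed no passing feature: the 4 features of a-cell genes (MFA1, MFA2, STE2 and BAR1) had turned shifts of −0.82 to 0.15 and deposited shifts of −0.42 to −0.10, and the 5 of alpha-cell genes (MF(ALPHA)1, MF(ALPHA)2 and STE3) had turned shifts of −0.33 to −0.04 and deposited shifts of −0.53 to 1.47.

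No gene of the export receptor, the Dbp5 step or TREX-2 passed the test of a difference between yra1-1 and wild type. In the fit turned by the labelled channel 0 of 9 features passed (limma, adjusted p below 0.05), where 0.0130% of all 7680 features passed. In the columns as deposited 0 of 9 passed, where 1.65% of all features did. At an unadjusted limma p under 0.05, 1 of 9 passed in each reading, the THP1 feature both times, against 13.0% of all features in the turned reading and 13.5% in the deposited one. None of the 9 features had the same sign on every array in either reading, as 7.33% of all features had when turned and 8.23% as deposited. When turned, the 1 feature that passed among all features had a shift of 4.61, and as deposited the smallest shift that passed was 1.40 in size. Every member shift was smaller in either reading. Passing also depends on the SE of each feature, so these sizes are not limits of detection. After adjustment no member shift could be told from 0 at this precision. The largest turned shifts in size were those of MEX67 (−0.83 ± 0.44, SE), THP1 (0.82 ± 0.37) and GLE1 (−0.68 ± 0.32).

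**Figure D1:**
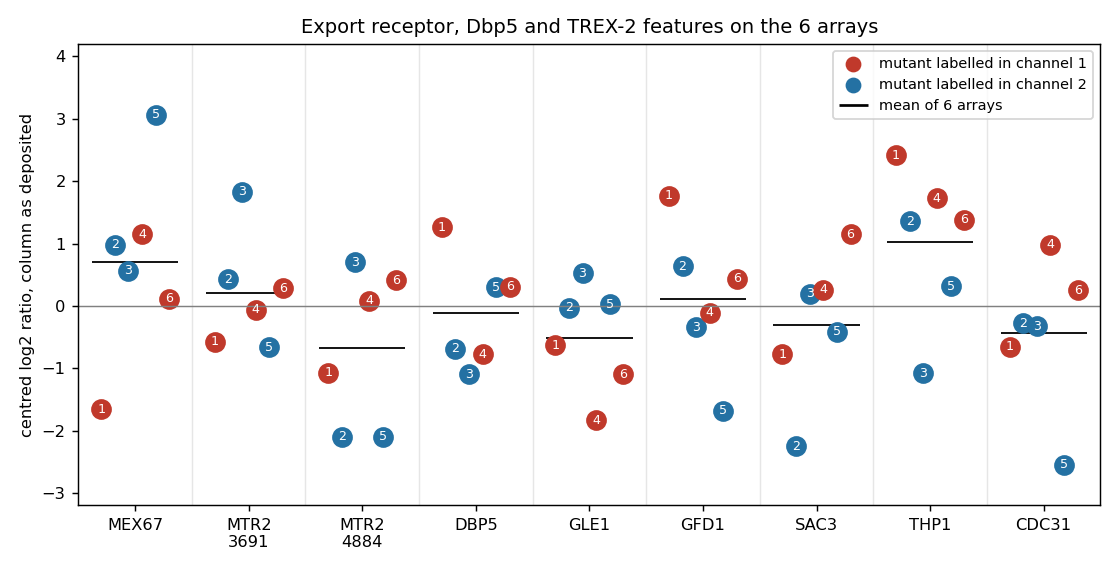
Centred log2 ratio of each member feature (vertical axis, column as deposited) on arrays 1 to 6, numbered in the points, with red for mutant RNA labelled in channel 1 and blue for channel 2, and a bar at the mean. Red and blue points are apart only for GLE1 and THP1, and every feature has points on both sides of 0.

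The receptor gene MEX67 had the widest range of the members. As deposited, its centred log2 ratio was −1.66, 0.98, 0.56, 1.15, 3.07 and 0.11 on arrays 1 to 6 in turn. Array 1 is low and array 5 high, and on these it stood at percentile 3.62 and at percentile 98.2 of all features of the array. MEX67 thus lay below 0 on array 1 and above 0 on arrays 2 to 6, which is the split of YRA1. This split was singled out after the values were seen, and 4.44% of all features with 6 values and 1 of the 9 members have it in either direction.

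Turned by the labelled channel, MEX67 became −0.98 on array 2, −0.56 on array 3 and −3.07 on array 5, and kept −1.66, 1.15 and 0.11 on arrays 1, 4 and 6. That gave 4 negative and 2 positive arrays, and the values of both channel assignments overlapped. The turned shift was −0.83 ± 0.44 (SE, 6 arrays, 95% interval −1.80 to 0.14, limma adjusted p = 0.471), and the deposited shift was 0.70 ± 0.44 (−0.27 to 1.67, limma adjusted p = 0.582). Without array 1 the turned shift was −0.45 and the deposited one 1.08 (limma adjusted p = 0.343), and without array 5 they were −0.45 and 0.32. With array 1 turned over, its sign changed, the deposited shift was 1.26 ± 0.41 (limma adjusted p = 0.545) and the turned one −0.28 ± 0.41.

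MTR2, which encodes the small partner that Mex67 needs at the pore, was spotted at 2 places, features 3691 and 4884. Feature 3691 lay at −0.58, 0.43, 1.83, −0.06, −0.67 and 0.29 on arrays 1 to 6 as deposited, and turned it became −0.43, −1.83 and 0.67 on arrays 2, 3 and 5. Its high value is on array 3, at percentile 97.9, and 3 arrays lay on each side of 0. Feature 4884 lay at −1.07, −2.10, 0.70, 0.08, −2.10 and 0.41, with arrays 2 and 5 low, and turned it became 2.10, −0.70 and 2.10 on arrays 2, 3 and 5. The turned shifts of the features have opposite signs, −0.32 ± 0.37 for 3691 (limma adjusted p = 0.806) and 0.49 ± 0.42 for 4884 (limma adjusted p = 0.720), and so do the deposited shifts, 0.21 ± 0.37 and −0.68 ± 0.42. Without array 3 the turned shift of feature 4884 was 0.95 and the deposited one −1.15, and without array 2 or array 5 the turned one was 0.25. Both intervals hold 0 in each reading, so the sides of MTR2 are not settled by either feature.

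The gap between the features of MTR2 stayed within the range that holds 95% of genes with 2 features. Feature 3691 exceeded 4884 by 0.50, 2.53, 1.13 and 1.44 log2 units on arrays 1, 2, 3 and 5, and lay below it by a difference of −0.15 on array 4 and −0.13 on array 6. The median absolute gap over genes with 2 features was 0.51 to 0.85 on the 6 arrays, and the gap of MTR2 on array 2, the widest, stood at percentile 93.7 of them. Around both places the named neighbours are the same genes in the same order: MRPL38, STE3, MST1, SET3 and CAF4. For MRPL38, STE3 and CAF4 the first feature was the higher on every array with both values, whereas for SET3 it was the lower on 4 of 6 arrays. The median difference over the 5 neighbours was 1.28, 0.85, 1.45, 2.92 and 2.63 on arrays 2 to 6 in turn. On array 1 it was 2.58, over the 2 neighbours with both values.

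**Figure D2:**
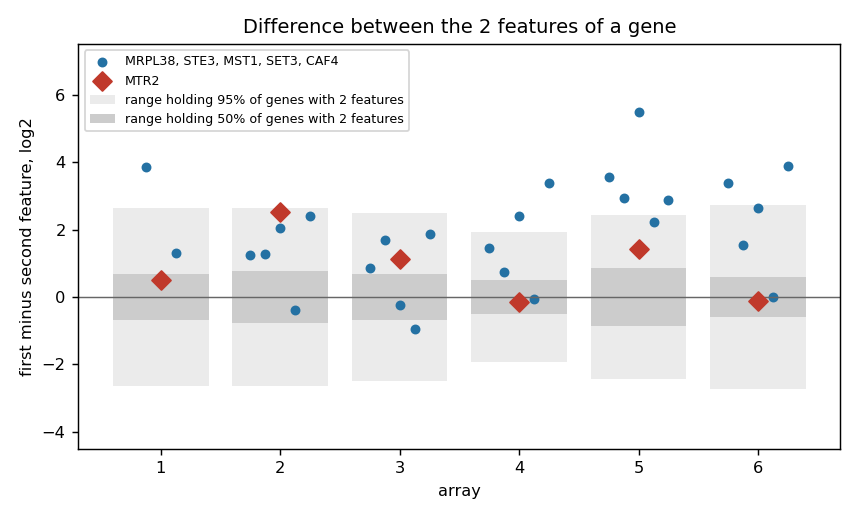
First minus second feature of a gene (vertical axis, log2 units) on each array, with red diamonds for MTR2, blue points for its neighbours MRPL38, STE3, MST1, SET3 and CAF4, and grey ranges that hold 50% and 95% of genes with 2 features. MTR2 lies within the 95% range on every array, while neighbours lie above it on arrays 1, 4, 5 and 6.

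Among the genes of the Dbp5 step, GLE1 had channel groups that did not overlap. GLE1, whose product activates Dbp5 at the pore, lay at −0.63, −1.84 and −1.09 on arrays 1, 4 and 6, with the mutant in channel 1, and at −0.03, 0.52 and 0.03 on arrays 2, 3 and 5, with it in channel 2 (as deposited). All values of the first set are below all of the other. Turned, arrays 2, 3 and 5 became 0.03, −0.52 and −0.03, so 5 of 6 arrays were negative. The shift was −0.68 ± 0.32 turned (95% interval −1.37 to 0.01, limma adjusted p = 0.391) and −0.51 ± 0.32 as deposited (limma adjusted p = 0.576). Channel groups without overlap were found for 2 of 9 members, GLE1 and THP1, and for 18.4% of all features.

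DBP5, the RNA-dependent ATPase that releases Mex67, had arrays on both sides of 0. It lay at 1.26, −0.68, −1.09, −0.77, 0.30 and 0.31 on arrays 1 to 6 as deposited, with array 1 the highest and array 3 the lowest. Turned, arrays 2, 3 and 5 became 0.68, 1.09 and −0.30, and the shift was 0.38 ± 0.36 (limma adjusted p = 0.750), or 0.13 without array 1, 0.23 without array 3, 0.64 without array 4 and 0.58 without array 5. As deposited it was −0.11 ± 0.36 (limma adjusted p = 0.950). The intervals, −0.41 to 1.17 turned and −0.91 to 0.68 as deposited, bound the difference at this precision.

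GFD1, the Gle1-binding factor, lay at 1.77, 0.64, −0.34, −0.11, −1.68 and 0.43 on arrays 1 to 6 as deposited, highest on array 1 and lowest on array 5. Turned, arrays 2, 3 and 5 became −0.64, 0.34 and 1.68. The turned shift was 0.58 ± 0.39 with 4 of 6 arrays positive (limma adjusted p = 0.601) and the deposited shift was 0.12 ± 0.39. Without array 1 the turned shift of GFD1 was 0.31 and the deposited one −0.15, and without array 2 the deposited one was −0.16.

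**Figure D3:**
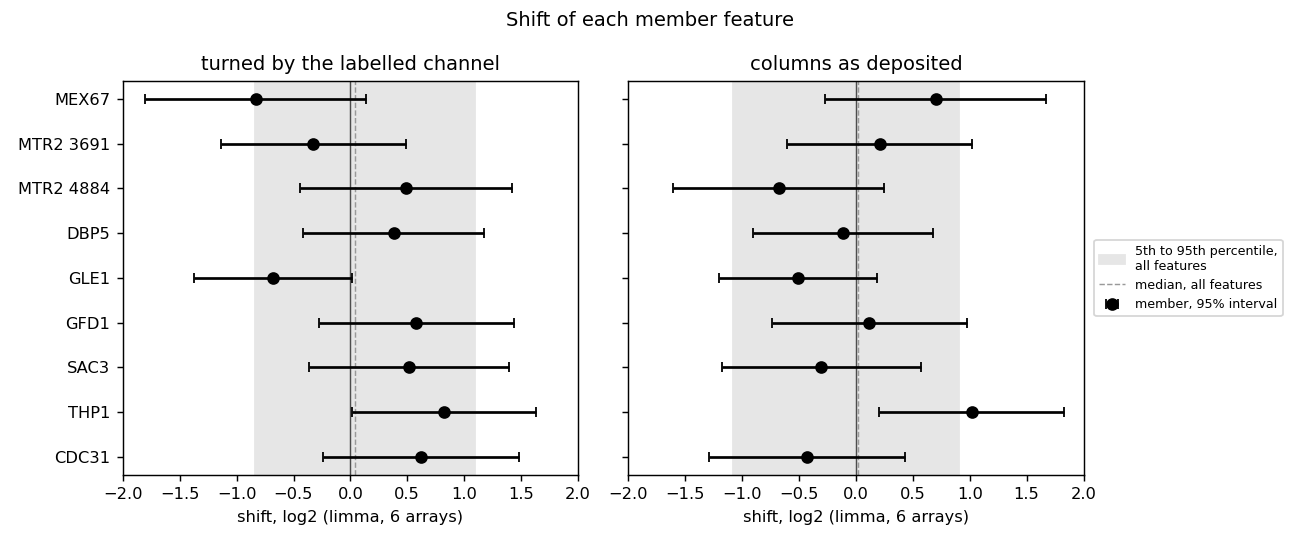
Shift of each member feature in log2 units (horizontal axis, limma over 6 arrays) with its 95% interval, on the turned reading at left and as deposited at right, over a grey band from the 5th to the 95th percentile of all features. The interval of THP1 lies above 0 in both panels, the other intervals hold 0, and no feature passed after adjustment.

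Of the TREX-2 genes, THP1 had the smallest p of all members in both readings, and it did not pass. THP1, an RNA-binding subunit that joins Sac3, lay at 2.42, 1.36, −1.08, 1.72, 0.31 and 1.38 on arrays 1 to 6 as deposited. Array 3 is its only value below 0, and 4 of the other 5 lay at percentile 91.8 or higher of their array. Turned, arrays 2, 3 and 5 became −1.36, 1.08 and −0.31, so 4 arrays were positive and 2 negative. The channel groups are barely apart, since 1.38 on array 6 is the lowest of one and 1.36 on array 2 the highest of the other. The shift as deposited was 1.02 ± 0.37 (95% interval 0.21 to 1.83, unadjusted p = 0.0184, limma adjusted p = 0.218) and turned it was 0.82 ± 0.37 (0.01 to 1.64, unadjusted p = 0.0477, limma adjusted p = 0.382). With array 1 turned over, the deposited shift was 0.21 ± 0.55 and the turned one 0.02 ± 0.55. THP1 then no longer had the smallest limma p of the members in either reading. MEX67 (1.26 ± 0.41) had it as deposited and CDC31 (0.84 ± 0.39) when turned, and neither passed. Which member comes first thus depends on the sign of array 1.

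SAC3, the TREX-2 scaffold, lay at −0.78, −2.25, 0.20, 0.26, −0.41 and 1.14 on arrays 1 to 6 as deposited, low on array 2 and high on array 6. Turned, arrays 2, 3 and 5 became 2.25, −0.20 and 0.41. The turned shift was 0.52 ± 0.40 (limma adjusted p = 0.671), and without array 2 it was 0.16. As deposited it was −0.31 ± 0.40, and 0.05 without array 2.

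CDC31, the yeast centrin, which also acts in spindle pole body duplication, lay at −0.65, −0.28, −0.32, 0.98, −2.54 and 0.25 on arrays 1 to 6 as deposited. Array 5 stands apart as the low value, at percentile 3.74. Turned, arrays 2, 3 and 5 became 0.28, 0.32 and 2.54, so 5 of 6 arrays were positive, and the shift was 0.62 ± 0.39 (limma adjusted p = 0.565). Without array 5 it was 0.25, and the deposited shift went from −0.43 to −0.05. SEM1, the remaining TREX-2 subunit, had a turned shift of 0.53 ± 0.37 and a deposited shift of 0.30 ± 0.37 (limma adjusted p = 0.628 and 0.844).

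Arranged by the turned shift, the order ran from MEX67 and GLE1 through the features of MTR2 (3691), DBP5, MTR2 (4884), SAC3, GFD1 and CDC31 to THP1. The 95% intervals of neighbours in this order overlapped, and 6 of 9 lay on the positive side, beside 53.5% of all features. The median over the members was 0.49 against 0.04 over all features, with turned SEs of 0.32 to 0.44. As deposited 4 of 9 were positive, beside 51.5% of all features, with a median of −0.11 against 0.02. Turned, the features of SAC3, THP1 and CDC31 were all positive, as was SEM1. MEX67 and MTR2 feature 3691 were both negative when turned, and MTR2 feature 4884 was positive. As deposited, THP1 was positive and SAC3 and CDC31 negative. MEX67 and MTR2 feature 3691 were then both positive, and MTR2 feature 4884 was negative.

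**Figure D4:**
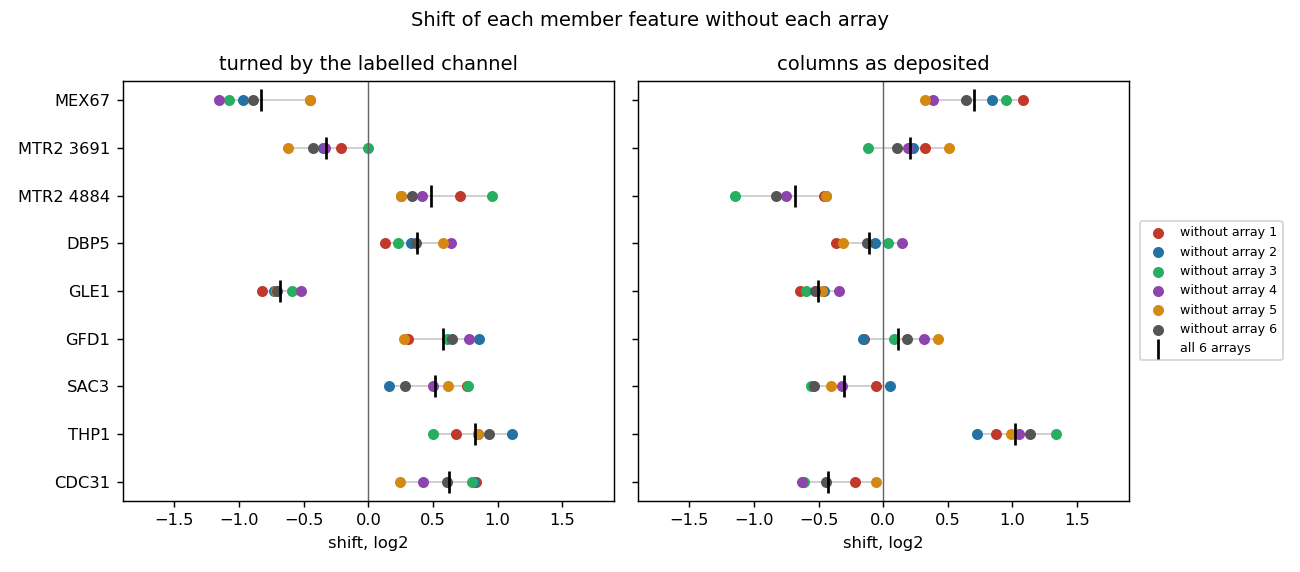
Shift of each member feature in log2 units (horizontal axis) when 1 array is left out, coloured by that array, with a black tick for all 6 arrays; turned reading at left, as deposited at right. Leaving out array 1 or 5 brings the turned shift of MEX67 to −0.45, and without array 3 the turned shift of THP1 is 0.50.

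Arrays that share a date code in their titles give a value within that code, since each such pair holds both channel assignments. Code 4 holds array 1, the exception in sign for YRA1, TRP1 and URA3, so the values of that code rest on its sign. Arrays 5 and 6 (code 1) and arrays 1 and 3 (code 4) gave MEX67 turned means of −1.48 and −1.11. For GLE1 they were −0.56 and −0.58, for GFD1 1.06 and 1.05, and for THP1 0.54 and 1.75. DBP5 had 0.01 and 1.18. These 5 of 9 features had the same turned side within both codes, as had 51.5% of all features with values on the 4 arrays. SAC3 (0.78 and −0.49), CDC31 (1.40 and −0.16) and MTR2 (0.48 and −1.20 for feature 3691, 1.26 and −0.89 for feature 4884) changed side between the codes. With array 1 turned over, the turned shifts over 6 arrays were −0.28 for MEX67, −0.47 for GLE1, −0.0099 for GFD1, 0.017 for THP1 and −0.041 for DBP5. Codes 2 and 3 hold 1 array each and give no mean within the code. In a fit with the date code as a term they add nothing to the turned estimate, which rests on the same 4 arrays. With the date code as a term in the fit, MEX67 was at −1.29 ± 0.46 (limma adjusted p = 0.477) and THP1 at 1.14 ± 0.50 (limma adjusted p = 0.551), and 0 of 9 members passed.

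Features with nearby identifiers tended to have values of the same sign, and those 1, 2, 20 and 21 identifiers away are called slide neighbours here, although the labels give no slide layout. Of the 54 member values, 35 had the sign of the median of these neighbours, beside 69.8% of all values. CDC31 on array 5 (−2.54) lay among MET7 (−2.31), APC5 (−2.31), RBL2 (−1.97) and TPO4 (−1.78), the closest identifiers. MEX67 on array 5 (3.07) lay among RAD53 (2.27), BEM4 (2.84), CUP9 (1.31) and MRN1 (1.73). These neighbours are named for their place and were picked with their values known.

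Subtracting the neighbours' median changed the turned shift of some members more than of others. The turned mean of the neighbours was −0.35 for MEX67, −0.48 for GLE1, 0.57 for DBP5, 0.55 for GFD1 and 0.42 for CDC31, in each case on the side of the member itself. After subtraction the turned shift was −0.49 ± 0.31 for MEX67, −0.20 ± 0.25 for GLE1, −0.19 for DBP5, 0.03 for GFD1 and 0.21 for CDC31, with 0 of 9 past the threshold. For SAC3 it was 0.46, and for MTR2 it was −0.26 at feature 3691 and 0.45 at feature 4884, close to the values before subtraction. THP1 was at 0.97 ± 0.27 as deposited (limma adjusted p = 0.183), and its turned shift went from 0.82 to 0.48 ± 0.27 (limma adjusted p = 0.595). DBP5 (6219) and THP1 (6178) lie 41 identifiers apart and share BSC6 and CTR9 as neighbours. The part of slide position in any single member value was not tested.

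**Figure D5:**
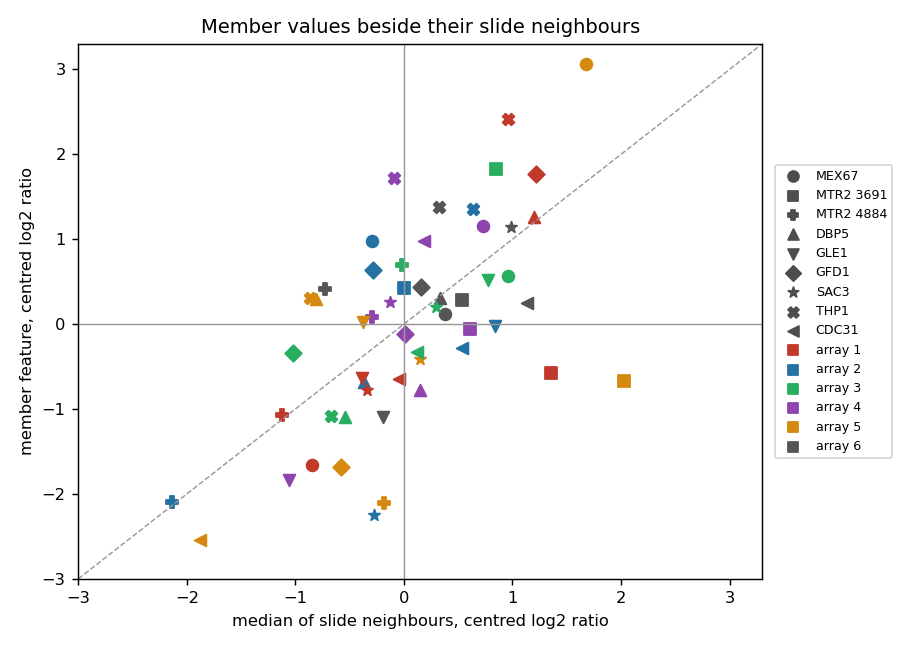
Centred log2 ratio of each member feature (vertical axis) against the median of its slide neighbours (horizontal axis), 54 values, with a symbol for each feature and a colour for each array; the dashed line marks equal values. MEX67 and CDC31 on array 5 lie far out on the same side as their neighbours, and MTR2 feature 3691 on array 5 lies on the other side.

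Features of the same complex had correlations of both signs across arrays. Over the 36 pairs of member features, Pearson's r over the 6 arrays ran from −0.93 to 0.80 with a median of −0.12, and 15 pairs were positive. The highest was MTR2 (4884) with SAC3 (0.80) and the lowest MEX67 with GFD1 (−0.93). MEX67 had r of −0.08 and −0.34 with the features of its partner MTR2, which themselves had r = 0.59. Within TREX-2, r was −0.19 for THP1 with SAC3, 0.31 for THP1 with CDC31 and 0.28 for SAC3 with CDC31. These are descriptions over the same 6 arrays, whose labelled channels and slides the points share, and no test was made of them.

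By the same measure, the named features most like MEX67 among 6652 were PEX14, a peroxisomal import factor (r = 0.99), YER010C (0.98) and GTT1, a glutathione transferase (0.97), all at least 2759 identifiers away. Most like DBP5 were the anaphase-promoting complex gene APC4 (0.97), the sporulation glucanase gene SPR1 (0.97, 42 identifiers away) and the mitochondrial ribosomal protein gene MRPL31 (0.95). For SAC3 they were CBS2 (0.99), PEX29 (0.98) and IWR1 (0.98), which lie 17, 77 and 73 identifiers away. Of these 9 features, SPR1 and the 3 most like SAC3 have identifiers close to those of the member. All 9 were picked for the highest r among 6652 features over few arrays, so such values can occur without any relation. No test was made of them.

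Other factors of the export route were described in the same fit, in 5 groups chosen for their roles, and no feature of them passed in either reading. Of all features, 53.5% were positive when turned and 51.5% as deposited. In the TREX and THO group, 10 features of 8 genes, 8 were positive and 2 negative as deposited, and the median was 0.16. When turned, 4 were positive and 6 negative, and the median was −0.06. YRA1 (−1.23 ± 0.42, limma adjusted p = 0.280) and the helicase gene SUB2 (−0.73 ± 0.35) had the smallest p on the negative side, and THO2 (1.03 ± 0.47, positive on 6 of 6 arrays) and TEX1 (0.91) on the positive side. As deposited they were YRA1 (1.50 ± 0.42, limma adjusted p = 0.107) and MFT1 feature 3481 (0.40) on the positive side. On the negative side they were HPR1 (−0.28) and MFT1 feature 4633 (−0.17). SUB2 (0.20), THO2 (0.48 ± 0.47, positive on 3 of 6 arrays) and TEX1 (0.39) were then positive.

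Among the mRNA-binding adaptors, 6 features of 5 genes, 3 were positive and 3 negative in each reading. PAB1, the poly(A)-binding protein gene, was at −1.75 ± 0.38 turned, with 6 of 6 arrays negative (limma adjusted p = 0.180). NPL3, encoding a shuttling SR-like protein, was at −0.80 ± 0.35, also with 6 of 6 arrays negative (limma adjusted p = 0.361). On the positive side NAB2 feature 5672 (0.36) and GBP2 (0.14) came first. As deposited both features of NAB2, 5672 (−0.97 ± 0.34, limma adjusted p = 0.197) and 2909 (−0.29), came first on the negative side. NPL3 (0.44) and GBP2 (0.21) came first on the positive side. PAB1 was then at −0.32 ± 0.38, with 3 of 6 arrays negative.

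The pore proteins that Mex67, Gle1, Dbp5 or TREX-2 dock on gave 13 features of 11 genes. As deposited 5 were positive and 8 negative, and when turned 8 were positive and 5 negative. NUP1, encoding a basket nucleoporin that anchors Sac3, was at 0.98 ± 0.35 with 6 of 6 arrays positive (limma adjusted p = 0.292), followed by NUP116 (0.63), and on the negative side were GLE2 (−0.58) and NUP42 (−0.49), whose protein binds Gle1. As deposited, the features of the basket filament gene MLP1 lay on opposite sides, at −1.12 ± 0.38 for 5365 and 0.97 ± 0.37 for 3851 (limma adjusted p = 0.178 and 0.249). GLE2 (−0.42) and MLP2 (0.28) were next on their sides. NUP1 was at −0.09 ± 0.35 and NUP116 at −0.36 as deposited.

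In the TREX-2 and SAGA group, 5 features of SEM1, SGF11, UBP8 and SGF73, 3 were positive and 2 negative in each reading. SGF73, which holds the deubiquitination module of SAGA that shares Sus1 with TREX-2, was negative on 6 of 6 arrays when turned at both its features, at −1.18 ± 0.38 for 2890 and −0.61 ± 0.32 for 5653 (limma adjusted p = 0.266 and 0.468). As deposited these features were at −0.24 and −0.25. The other module genes lay on the positive side when turned, SGF11 at 1.00 ± 0.44 and UBP8, the ubiquitin protease gene, at 1.20 ± 0.59 (limma adjusted p = 0.365 and 0.423). As deposited UBP8 was at 1.32 ± 0.59 (limma adjusted p = 0.363) and SGF11 at 0.16 ± 0.44.

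Of the 3 genes for synthesis of inositol hexakisphosphate, the cofactor of Gle1, PLC1 was at 1.12 ± 0.32 turned and −1.21 ± 0.32 as deposited (limma adjusted p = 0.249 and 0.0874). ARG82 was at −1.28 ± 0.50 turned (limma adjusted p = 0.321) and −0.08 as deposited. IPK1, which makes the final product, was at −0.30 turned and 0.62 ± 0.38 as deposited (limma adjusted p = 0.575). The group thus had members on both sides in each reading.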

How the data were processed

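Total RNA of yra1-1 and wild-type cells was compared on 6 two-colour arrays. The authors deposited a log10 ratio for each feature on each array. Base 10 was inferred, since 38 to 337 values per array equal, within 6e-10, the log10 of a ratio of whole numbers with one term of at most 60, against at most 1 in base 2 or base e. Background treatment and normalization: not given in the sources used here. Intensities were not used here, so signal over background is unknown; the number of arrays limits the precision. Of 7684 rows, 1 had no numeric identifier and 3 repeated identifiers were averaged. Annotation named 6695 features, each with 1 symbol, 985 had none, and all 9 member features matched the current gene table (R64).

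Values were converted to log2 and centred on each array's median. The fit over 7680 features used lmFit and eBayes of limma 3.58.1 in R 4.3.3, with terms for the labelled channel and for the deposited sign, on features with at least 4 values and 2 per channel assignment. Tests are two-sided, with Benjamini-Hochberg adjustment over all features at 0.05. The fit was tested on simulated data. Members, groups, tests and alternatives were chosen with earlier results of these data known. All members were named, then YRA1, TRP1, URA3 and SEM1, up to 2 features with the smallest p per group, side and reading, and the 3 features most like MEX67, DBP5 and SAC3.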

Additional observations from a re-analysis of the deposited data

How the results depend on the processing

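With centring kept, 0 members passed under any alternative. Without centring the median turned shift of all features was −2.07 and 3 members passed, MEX67 (−2.94), MTR2 feature 3691 (−2.43) and GLE1 (−2.79), as did 4887 of all features. There the turned shifts of MTR2 feature 4884 (−1.62), DBP5 (−1.73), GFD1 (−1.53), SAC3 (−1.59), THP1 (−1.29) and CDC31 (−1.49) and the deposited ones of MEX67 (−0.13), MTR2 feature 3691 (−0.63) and GFD1 (−0.72) changed side, and 2 features passed as deposited. Leaving out each array in turn gave 0 members in each reading, and 0 to 4 (turned) and 0 to 214 (deposited) of all features, against 1 and 127 over 6 arrays. Turned, 4 passed without array 3 and 0 without array 4, 5 or 6 (637, 1094 and 943 at an unadjusted limma p under 0.05), and as deposited 214 passed without array 5, 69 without array 2, 45 without array 1, 15 without array 3 and 0 without array 4 or 6 (817 and 783 unadjusted). Leave-one-out shifts that crossed 0 were, turned, MTR2 feature 3691 (−0.62 to 0.00012) and, as deposited, MTR2 feature 3691 (−0.12 to 0.51), DBP5 (−0.36 to 0.15), GFD1 (−0.16 to 0.42) and SAC3 (−0.56 to 0.051). The others ranged, turned, from −1.15 to −0.45 for MEX67, 0.25 to 0.95 for MTR2 feature 4884, 0.13 to 0.64 for DBP5, −0.82 to −0.52 for GLE1, 0.27 to 0.85 for GFD1, 0.16 to 0.77 for SAC3, 0.50 to 1.11 for THP1 and 0.25 to 0.83 for CDC31, and, as deposited, from 0.32 to 1.08 for MEX67, −1.15 to −0.45 for MTR2 feature 4884, −0.65 to −0.35 for GLE1, 0.73 to 1.34 for THP1 and −0.62 to −0.05 for CDC31.

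Other sign changes of shifts that did not pass were, with array weights, MTR2 feature 4884 (−0.19 turned, 0.046 deposited) and SAC3 (0.083 deposited), and with the neighbours subtracted, DBP5 (−0.19 turned) and, as deposited, MTR2 features 3691 (−0.69) and 4884 (0.067). Without ratios of small whole numbers, where GLE1, SAC3 and CDC31 could not be tested, they were DBP5 (−0.019 turned) and GFD1 (−0.16 deposited), and with array 1 turned over DBP5 (−0.041) and GFD1 (−0.0099) turned and GFD1 (−0.47) as deposited. The cause was not tested. Of 309 recomputed member shifts, 279 kept their side and their side of the threshold. The closest to passing with centring was THP1 turned with array weights (1.27, limma adjusted p = 0.0524), where 191 of all 7680 features passed. In that fit array 3 had a weight of 4.80, against 0.34 to 1.07 for the other arrays.

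Turned, all features past the threshold numbered 3 with arrays scaled to 1 SD and 191 with array weights, and 0 in features with 6 values, with the date code as a fixed term, with neighbours subtracted, without repeated values or per gene (677 to 990 at an unadjusted limma p under 0.05). As deposited they numbered 0 with arrays of a date averaged (888 unadjusted), 257 with the date code as a random block (estimated correlation −0.27), 676 with array weights, 3 with neighbours subtracted, 36 without repeated values, 2 with array 1 turned over and 22 per gene. Replicate numbers pair no samples, since all arrays form 1 group, so the date code served as the block.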
